A study of Mus musculus with 40 samples.

Results

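The 10 genes described here are markers of fibroblasts and components of the extracellular matrix other than collagens. They are the platelet-derived growth factor (PDGF) receptors Pdgfra and Pdgfrb, the small leucine-rich proteoglycans Dcn (decorin) and Lum (lumican), the matrix glycoproteins Sparc, Fn1 (fibronectin) and Postn (periostin), and the cell surface proteins Thy1, Pdpn (podoplanin) and Fap (fibroblast activation protein). They were taken as a list of gene names, and each symbol matched 1 of the 45706 genes in the deposited tables. All 10 were followed through 40 RNA-seq libraries in 10 groups of 4.

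The study asked how neutrophils and monocytes act in mouse colon tumors, and sequenced the sorted cells of tumors, blood and healthy colon. Tumors arose in mice that carried Apc fl/fl with Cdx2CreERT2, a Cre recombinase driven by the Cdx2 promoter of intestinal epithelium, after tamoxifen at 25 mg/kg at 8 to 10 weeks of age. These mice gave tumor epithelial cells (CD45-, EpCAM+), tumor stromal cells (CD45-, EpCAM-), tumor monocytes and neutrophils, and monocytes and neutrophils of the blood. Their strain is labelled C57Bl6/Sv129, with the closing number counting upwards from sample to sample. Healthy C57Bl6 mice, with neither transgene nor agent, gave the same epithelial and stromal gates from colon and the same myeloid gates from blood, so that strain, Cre, tamoxifen and tumor cannot be told apart. Some library titles name a pair of animals, which is read here as pooled cells. By their titles, some animals gave libraries to several groups, so that libraries of different groups are not fully independent. The stromal gate is negative for both antibodies and used no fibroblast marker, so it can hold fibroblasts, endothelial cells, pericytes, smooth muscle and any cell that escaped the other gates.

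Fibroblasts build and remodel the connective tissue of the gut wall, and PDGF from epithelium and vessels acts on them through PDGFRα, while PDGFRβ is the receptor of pericytes and of many fibroblasts. Decorin and lumican bind collagen fibrils and set their spacing, SPARC and periostin are matricellular proteins that adjust how cells hold to the matrix, and fibronectin is an adhesive fibre-forming glycoprotein that integrins bind. THY1 is a membrane-anchored glycoprotein of fibroblasts, and in the mouse also of T cells. Podoplanin marks lymphatic endothelium, some fibroblasts and activated macrophages and is the ligand of CLEC-2, and fibroblast activation protein is a membrane protease known from activated fibroblasts.

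Start sites and upstream sequence were available for 4 of the 10 genes, from RefSeq on GRCm38.p6, the build that mm10 names. The 250 bases before the start are shown for the 3 of them that passed the test in tumor against healthy stroma. Capitals mark matches, on either strand, to the TATA box (TATAAA), the GC box (GGGCGG), the CCAAT box (CCAAT) or sites of AP-1 (TGANTCA), TEAD (GGAATG) and SMAD (CAGACA) factors.
Pdgfra (chr5:75152001-75152250, plus strand): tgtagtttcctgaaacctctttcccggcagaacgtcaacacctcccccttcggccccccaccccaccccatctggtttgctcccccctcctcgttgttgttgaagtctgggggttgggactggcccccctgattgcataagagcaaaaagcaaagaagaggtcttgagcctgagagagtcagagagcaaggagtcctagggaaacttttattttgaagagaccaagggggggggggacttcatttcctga
Postn (chr3:54360857-54361106, plus strand): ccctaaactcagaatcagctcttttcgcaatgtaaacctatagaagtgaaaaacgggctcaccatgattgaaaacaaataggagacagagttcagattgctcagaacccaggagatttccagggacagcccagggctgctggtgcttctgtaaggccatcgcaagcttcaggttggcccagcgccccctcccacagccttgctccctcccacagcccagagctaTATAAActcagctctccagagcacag
Pdpn (chr4:143299565-143299814, minus strand): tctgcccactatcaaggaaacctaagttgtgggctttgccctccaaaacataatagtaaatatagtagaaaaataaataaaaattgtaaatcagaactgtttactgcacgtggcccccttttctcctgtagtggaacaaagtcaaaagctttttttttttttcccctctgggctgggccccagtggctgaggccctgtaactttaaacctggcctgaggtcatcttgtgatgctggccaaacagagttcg
A TATA box began 26 bases before the Postn start, and 12.4% of the 32851 promoters in the table held one in a window of 250 bases. The Pdgfra and Pdpn windows held none of the 6 motifs. Of all such windows, 32.7% held a GC box, 33.8% a CCAAT box, 6.75% an AP-1 site, 12.6% a TEAD site and 17.1% a SMAD site. A second RefSeq start of Postn, upstream of this one, had no match in its window, and the Sparc window had a SMAD match. A match is only a match of letters.

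On mm10 the annotation (GENCODE M21) places Dcn at chr10:97479609-97518143 and Lum next to it at chr10:97565128-97572703. Sparc lies on chromosome 11, Fn1 on chromosome 1, Thy1 on chromosome 9 and Fap on chromosome 2. Gm42802 and Gm42803 lie antisense to Pdgfra (chr5:75152292-75198215), and Apol7d lies antisense to Fn1 (chr1:71585520-71653200). Whether the counting used strand is not given in the sources used here, so the reads of these pairs cannot be told apart. The other 8 members overlap no annotated gene on either strand, and the microRNA gene Mir7025 lies within Pdgfra.

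Counts on genes came to 10717873 to 38002939 per library, and mitochondrial genes took 5.34% to 83.9% of them. Apc itself was at 6.20 ± 0.253 RPKM (SD, n = 4) in tumor epithelium and 2.08 ± 1.27 in healthy epithelium, a log2 fold change of 1.13 ± 0.31 (SE), and a count over the whole gene does not test whether the floxed part was lost. Among the stromal libraries, tumor libraries 1 and 2 stood apart. The summed RPKM of 10 epithelial markers was 229 and 132 there, against 150 to 370 in sorted tumor epithelium and 2.42 to 21.0 in healthy stroma, while 10 endothelial markers summed to 8.43 and 7.80. In tumor libraries 3 and 4 the endothelial markers summed to 158 and 167, beside 32.3 to 179 in healthy stroma. Their epithelial markers summed to 49.5 and 28.7, lower than in tumor libraries 1 and 2 but above every healthy stromal library. Libraries 3 and 4 also held blood cell RNA, with neutrophil markers at 1508 and 511 (healthy stroma 6.23 to 43.2) and erythroid markers at 3542 and 1082 (healthy stroma 3.57 to 1920). Healthy stromal library 4 also differed from the other 3. It had the lowest endothelial sum (32.3) and the highest epithelial sum (21.0, against 2.42 to 3.36), yet the highest level of 8 of the 10 members.

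In the healthy colon the 10 genes separated stroma from epithelium without exception. Each was higher in all 4 healthy stromal libraries than in any healthy epithelial library, a separation not counted over all genes. All 10 passed the test, as did 30.9% of the 18468 genes tested (19.4% as higher in stroma). The test was edgeR's quasi-likelihood test on rounded counts, with Benjamini-Hochberg adjustment, and a gene was called where its adjusted p-value was under 0.05 and its log2 fold change was beyond 1.5 in either direction. The order of levels per transcript length in healthy stroma ran from Dcn (559 ± 520 RPKM, SD, n = 4), Sparc (200), Lum (103), Fn1 (67.4) and Postn (42.8) to Pdgfra (14.5), Pdpn (8.09), Thy1 (6.83), Pdgfrb (6.40) and Fap (3.16). Matrix genes thus headed the order and receptors and surface proteins followed. The fitted log2 fold changes over epithelium lay between 4.30 for Fap and 8.99 for Lum among the genes with reads in epithelium. Pdpn had a rounded count of 0 in all 4 healthy epithelial libraries and was at least 136-fold higher in stroma, taken against 3 counts per library. Thy1, with 3 counts over the 4 healthy epithelial libraries, was 496-fold higher by summed counts (95% exact Clopper-Pearson interval 169 to 2404, counting error only).

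**Figure D1:**
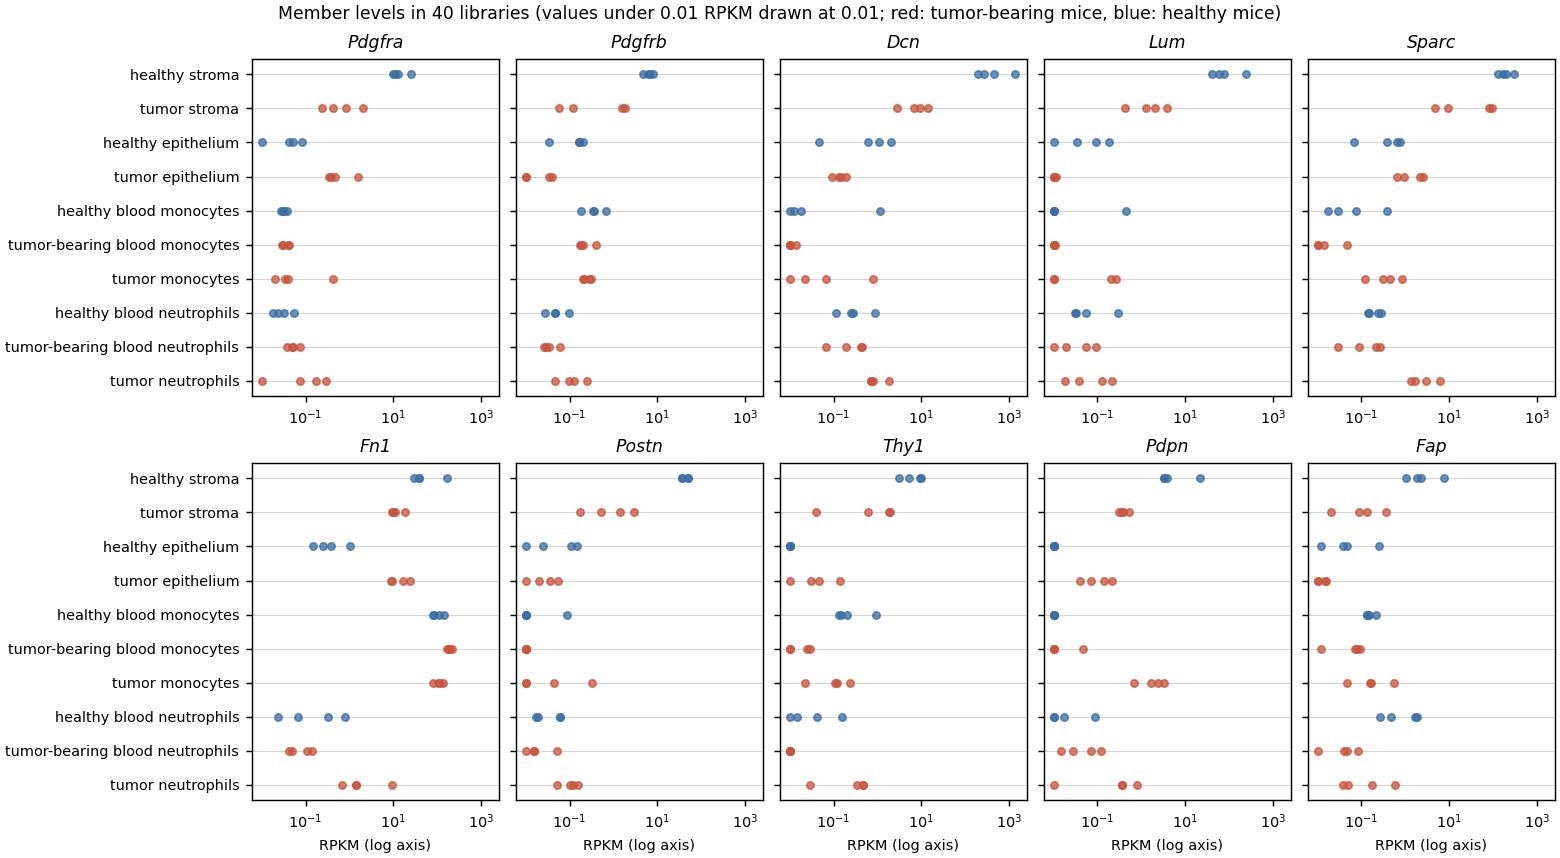
RPKM (log axis) of each of the 10 genes in every library, 4 points per group, with libraries of tumor-bearing mice in red and of healthy mice in blue, and values under 0.01 drawn at 0.01. Healthy stroma holds the highest points of 9 genes, whereas Fn1 is highest in blood monocytes of tumor-bearing mice, at 166 to 215 RPKM.

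Stromal cells of tumors were compared with those of healthy colon to see how the connective tissue compartment differed. All 10 genes were lower in the tumor stroma, with no overlap between the 4 tumor and the 4 healthy libraries for any of them. The share of all genes without such overlap was not counted. The fall passed the test for Dcn, Lum, Postn, Fap, Pdpn and Pdgfra, 6 of 10 members, where 8.40% of the 19081 genes tested were called and 5.01% were called as lower. It did not pass for Fn1, Pdgfrb, Thy1 and Sparc. The median log2 fold change was -3.88 over the 10 members and 0.03 over all genes tested. In bulk libraries of sorted cells, fewer fibroblasts among the cells and less RNA per fibroblast cannot be told apart. Genes induced by tissue dissociation, 8 on the list, summed to 386 to 544 RPKM in tumor and 802 to 1835 in healthy stroma, without overlap, with Egr1 called as lower. Mitochondrial genes took 24.8% to 62.9% of the counts in tumor and 15.6% to 24.9% in healthy stroma. The part of either in the fall was not tested.

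**Figure D2:**
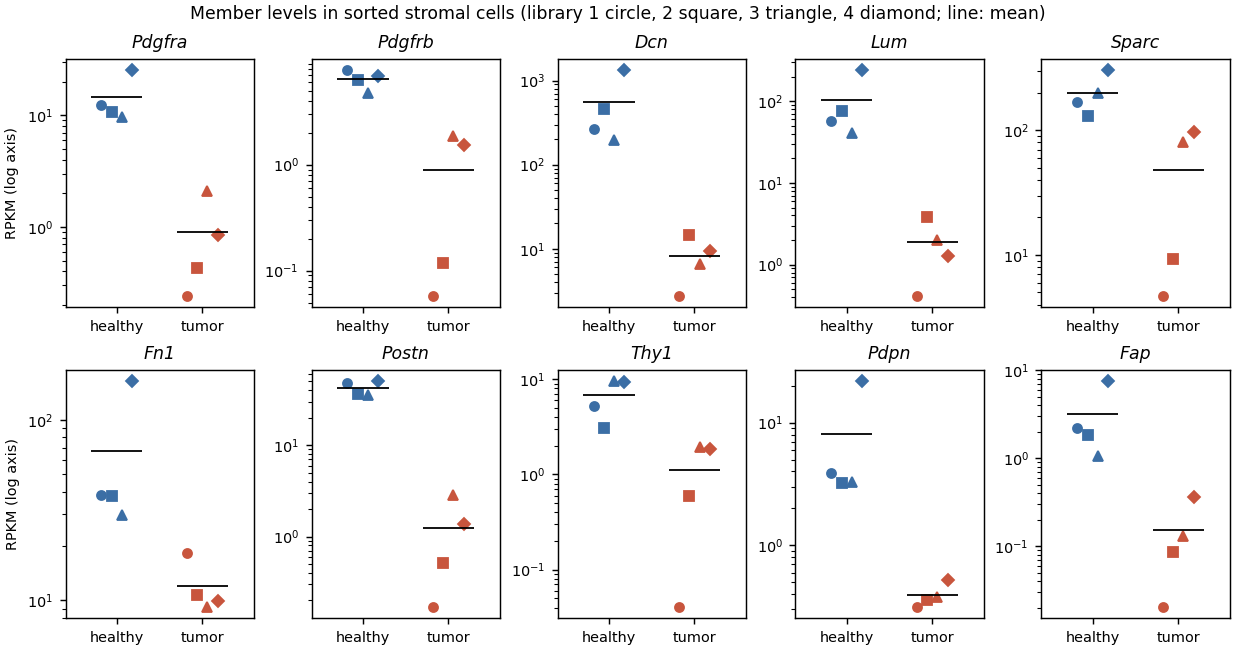
RPKM (log axis) of the 10 genes in healthy (blue) and tumor (red) stromal libraries 1 to 4, marked by circle, square, triangle and diamond, with the mean as a line. No tumor point reaches a healthy one in any panel, and tumor libraries 1 and 2 lie well below 3 and 4 for Pdgfrb and Sparc but not for Dcn, Lum or Pdpn.

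The small leucine-rich proteoglycans fell the most. Dcn was at 267, 453, 195 and 1322 RPKM in healthy stromal libraries 1 to 4 and at 2.74, 14.4, 6.64 and 9.40 in the tumor libraries. The highest tumor library was thus far below the lowest healthy one, and the log2 fold change was -5.69 ± 0.89 (SE, edgeR adjusted p = 0.00819). Lum was at 57.3, 75.1, 40.7 and 238 RPKM in healthy and at 0.413, 3.81, 1.99 and 1.29 in tumor stroma, with a log2 fold change of -5.37 ± 0.92 (edgeR adjusted p = 0.0108). Tumor library 2 had the highest tumor values of both proteoglycans although its endothelial and pericyte sums were among the lowest. Both genes, like Postn and Pdgfra, passed the test under each of the 19 alternatives.

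Of the matrix glycoproteins, Postn moved with the proteoglycans. It was at 48.6, 36.4, 35.7 and 50.6 RPKM in healthy stroma, the smallest ratio of highest to lowest among the members, and at 0.171, 0.519, 2.89 and 1.38 in tumor stroma, with a log2 fold change of -4.81 ± 0.79 (edgeR adjusted p = 0.00937). Sparc was at 168, 130, 199 and 303 RPKM in healthy stroma, and at 4.68, 9.35, 81.3 and 96.2 in tumor stroma. The tumor values fell into a low pair and a pair within reach of healthy stroma, and the log2 fold change of -1.77 ± 0.85 did not pass (edgeR adjusted p = 0.236). Endothelial cells, too, are known to make SPARC, and the endothelial markers split the same 4 libraries into the same pairs. Their part in the Sparc values was not tested.

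Fn1 kept its groups apart by less. It stood at 38.1, 37.7, 29.7 and 164 RPKM in healthy and at 18.3, 10.7, 9.22 and 9.96 in tumor stroma, and the log2 fold change of -2.14 ± 0.63 missed the threshold (edgeR adjusted p = 0.0653). Under 4 of the 19 alternatives it passed, with adjusted p-values between 0.00762 and 0.193 over all of them. Tumor library 1, the one with the highest epithelial marker sum, had the highest Fn1 of the tumor libraries. Sorted tumor epithelium held 8.71 to 24.3 RPKM of Fn1, a range that overlaps that of the tumor stromal gate.

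Of the receptors, Pdgfra passed and Pdgfrb did not. Pdgfra, the receptor found on most gut fibroblasts, was at 12.4, 10.8, 9.61 and 25.3 RPKM in healthy and at 0.240, 0.428, 2.08 and 0.847 in tumor stroma, with a log2 fold change of -3.73 ± 0.68 (edgeR adjusted p = 0.0136). Pdgfrb was at 7.76, 6.26, 4.73 and 6.86 RPKM in healthy stroma and at 0.0575, 0.118, 1.87 and 1.54 in tumor stroma. All healthy values exceeded all tumor values, but the low and the high tumor pair lay so far apart that the log2 fold change of -2.56 ± 0.94 did not pass (edgeR adjusted p = 0.128). When tumor libraries 1 and 2 were left out, the log2 fold change of Pdgfrb was -1.63 ± 0.30 and passed (edgeR adjusted p = 0.0232), and that of Pdgfra was -3.05 ± 0.59 (edgeR adjusted p = 0.0287). Pericyte markers followed the split of Pdgfrb, with 7 genes summing to 1.57 and 3.10 RPKM in tumor libraries 1 and 2, 46.0 and 43.4 in 3 and 4, and 26.0 to 91.5 in healthy stroma.

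Among the surface proteins, Pdpn was at 3.92, 3.23, 3.30 and 21.9 RPKM in healthy stroma and in the narrow range of 0.316 to 0.526 in tumor stroma (log2 fold change -4.03 ± 0.75, edgeR adjusted p = 0.0144). Fap was at 2.22, 1.85, 1.05 and 7.52 RPKM in healthy and at 0.0206, 0.0861, 0.131 and 0.366 in tumor stroma (log2 fold change -4.08 ± 0.93, edgeR adjusted p = 0.0293). Fap rested on 7 to 116 counts per tumor library, and its call was lost without tumor library 2 or 3 or without healthy library 1 or 2, with adjusted p-values of 0.0540 to 0.0735. Thy1 was at 5.27, 3.11, 9.60 and 9.36 RPKM in healthy stroma and at 0.0409, 0.598, 1.93 and 1.87 in tumor stroma (log2 fold change -2.29 ± 0.87, edgeR adjusted p = 0.140). T cell markers, 5 genes, summed to 4.94 and 8.76 RPKM in tumor libraries 3 and 4, where Thy1 was highest, against 0.443 and 0.391 in libraries 1 and 2 and 1.21 to 3.07 in healthy stroma, and their part in Thy1 was not tested.

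In tumor libraries 3 and 4 the fall of the fibroblast genes was not that of every stromal cell type. There the endothelial sum lay within the range of healthy stroma, yet Dcn, Lum, Postn, Pdgfra, Pdpn and Fap were below every healthy library. None of the 10 endothelial markers was called by edgeR, DESeq2 or limma-voom, 0 had an unadjusted p under 0.05, and their median log2 fold change was -0.62. None of the 7 pericyte markers was called by edgeR, 1 had an unadjusted p under 0.05, DESeq2 and limma-voom called 1 each, and the median was -1.28. In tumor libraries 1 and 2 the endothelial and the pericyte sums lay below every healthy library. With that spread, the missing calls do not show that these markers kept their level. Smooth muscle markers were lower, 6 of 8 called, with a median of -2.82 and summed levels of 3.45 to 7.34 RPKM in tumor and 25.4 to 116 in healthy stroma. Epithelial markers had a median of 3.75, with Cdh1, Vil1 and Lgals4 called as higher among 10, and of 6 neutrophil markers Csf3r and Cxcr2 were called as higher. With tumor libraries 1 and 2 left out, 5 members passed (Dcn, Lum, Postn, Pdgfra and Pdgfrb), while Pdpn (-3.90, edgeR adjusted p = 0.0761) and Fap (-3.38, edgeR adjusted p = 0.0856) did not.

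**Figure D3:**
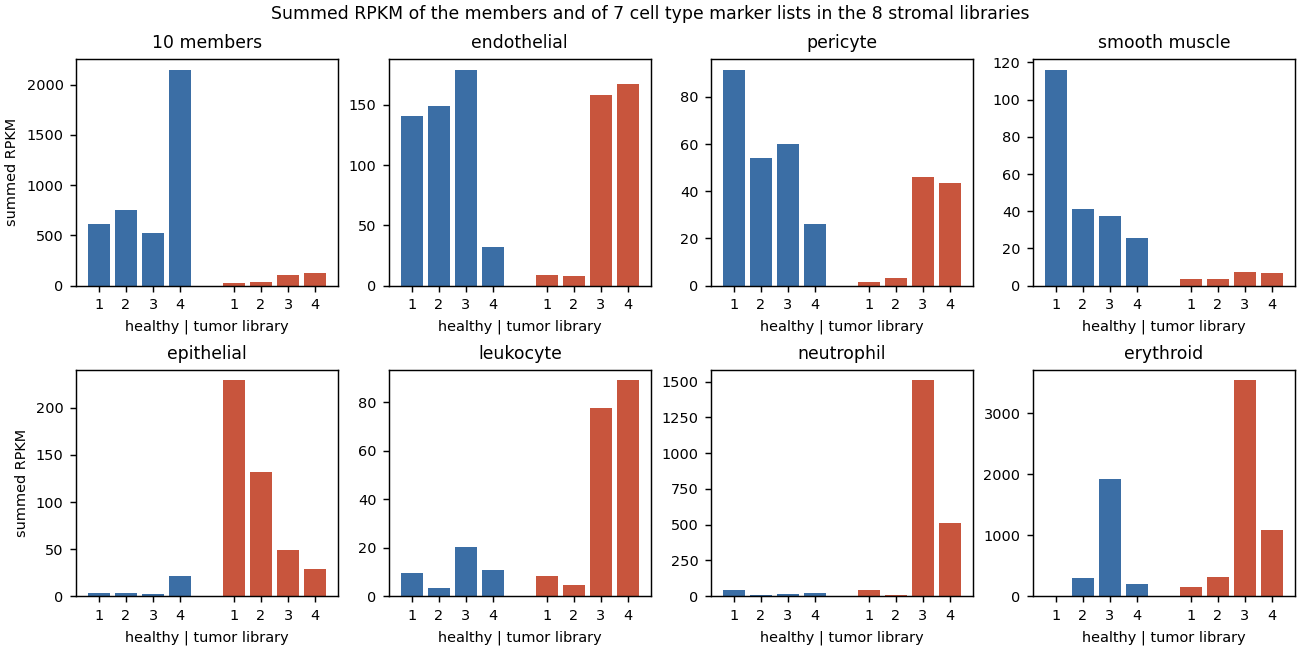
Summed RPKM of the 10 members and of 7 lists of cell type markers in healthy (blue, libraries 1 to 4) and tumor (red, libraries 1 to 4) stroma. The endothelial and pericyte bars of tumor libraries 3 and 4 reach those of healthy stroma (158 and 167 RPKM for endothelial markers), whereas the member bars of all 4 tumor libraries stay below every healthy bar.

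Setting each member against the summed endothelial markers of its own library removes differences in sequencing scale. Per unit of endothelial RPKM, Postn was at 0.00830 to 0.0666 in tumor and 0.199 to 1.56 in healthy stroma, and Pdgfrb at 0.00682 to 0.0152 and 0.0264 to 0.212. These were the members whose tumor and healthy ranges stayed apart on this scale. For the other 8 the ranges overlapped, and for Dcn they were 0.0419 to 1.85 and 1.09 to 40.9. In this ratio tumor libraries 1 and 2 stand on very few endothelial reads. Their endothelial sums, 8.43 and 7.80 RPKM, lay within the range of sorted tumor epithelium (7.31 to 9.05). For these libraries the ratio cannot be read as a level per endothelial cell, and the tumor ranges include them. In tumor libraries 3 and 4 every member lay below every healthy library on this scale, with Dcn at 0.0419 and 0.0564.

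The make-up of the member RNA also differed. Dcn took 36.9% to 61.5% of the 10 members' summed RPKM in healthy stroma and 6.12% to 35.6% in tumor stroma, with no overlap. Fn1 took 4.98% to 7.64% in healthy and 8.07% to 67.8% in tumor stroma, again with no overlap, and the highest share was that of tumor library 1. Against the mean of the other 9 members on a log2 scale, Dcn was 3.85 to 5.12 above in healthy and 1.40 to 3.77 above in tumor stroma. Fn1 was 0.84 to 1.77 above in healthy and 1.92 to 5.36 above in tumor stroma. For the other 8 members the ranges overlapped, and Sparc took 17.4% to 78.0% in tumor stroma against 14.1% to 37.7%. Within the member RNA, Dcn was thus a smaller and Fn1 a larger part in every tumor library than in any healthy one, a description without a test. For Fn1 the gap was small in tumor libraries 3 and 4, at 8.51% and 8.07% against at most 7.64%. Shares of 1 sum depend on each other, and sorted tumor epithelium also held Fn1, at 8.71 to 24.3 RPKM.

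**Figure D4:**
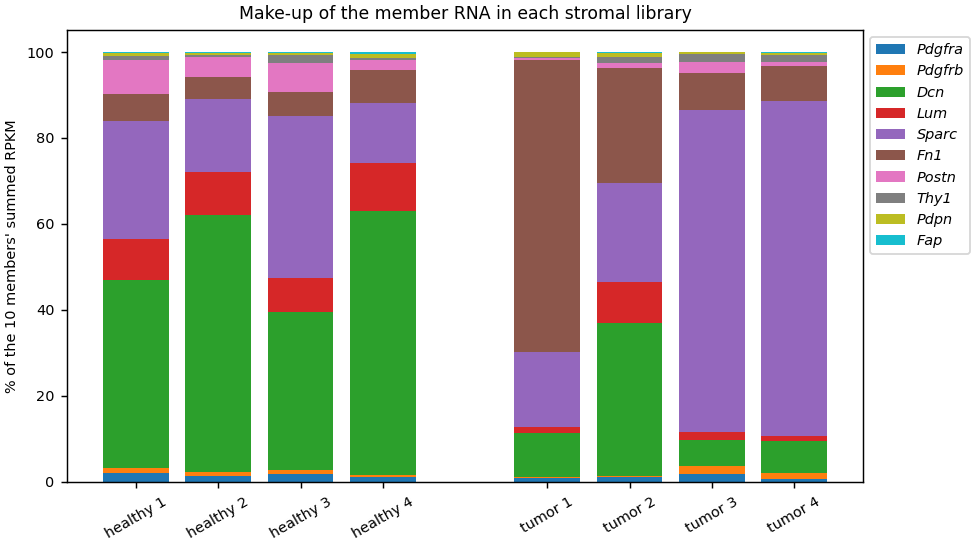
Share of each member in the summed RPKM of the 10 members, in percent, for healthy stromal libraries 1 to 4 and tumor stromal libraries 1 to 4. Dcn leads in 3 of the 4 healthy libraries, Fn1 leads in tumor library 1 at 67.8%, and Sparc leads in tumor libraries 3 and 4 at up to 78.0%.

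Other genes of the same tissue were listed by function. Of 42 further matrix genes tested, 27 were called as lower in tumor stroma and none as higher, with a median log2 fold change of -2.92. Over all genes tested, 5.01% were called as lower. By kind, 9 of 11 elastic fibre genes, 6 of 8 further proteoglycans, 9 of 16 matricellular and adhesive glycoproteins and 3 of 7 basement membrane genes were called as lower. Efemp1, an elastic fibre protein of the fibulin family, changed by -6.81 ± 1.03 on the log2 scale, from 62.2 ± 62.2 RPKM (SD, n = 4) to 0.437 ± 0.270. Tnxb, which encodes tenascin-X, changed by -6.09 ± 0.80, Spon2 (spondin 2) by -5.46 ± 0.74 and Ccdc80 by -5.23 ± 0.51.

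Collagen crosslinking and processing enzymes were called as lower in 8 of 12 cases (median -3.26), beside 5.01% of all genes tested. They included the lysyl oxidase family members Loxl1 (-5.74 ± 0.81) and Loxl3 (-3.86 ± 0.50) and the procollagen C-proteinase enhancers Pcolce (-5.07 ± 0.61) and Pcolce2 (-6.39 ± 1.14). Of 24 other fibroblast genes tested, 11 were called as lower and none as higher (median -3.49). Clec3b (tetranectin) changed by -8.24 ± 1.07, Dpt (dermatopontin) by -7.15 ± 0.81, from 271 ± 256 to 1.46 ± 0.544 RPKM, Dpep1 by -6.99 ± 1.09 and Gsn (gelsolin) by -5.84 ± 0.77. Of 8 genes that encode CLEC-2 or integrin subunits, the receptors of podoplanin and fibronectin, Itga8 was called (-4.47 ± 1.10), a gene named after its value was seen, and the median was -0.40.

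None of the 4 PDGF ligand genes was called in stroma by edgeR, DESeq2 or limma-voom, and 0 had an unadjusted p under 0.05. Pdgfa was at 4.25 ± 1.58 RPKM in tumor and 3.36 ± 1.61 in healthy stroma, Pdgfb at 1.36 ± 1.23 and 2.83 ± 1.01, Pdgfc at 0.856 ± 0.546 and 0.542 ± 0.231, and Pdgfd at 0.959 ± 0.947 and 2.73 ± 0.708. In tumor epithelium Pdgfb (log2 fold change 3.09 ± 0.80, edgeR adjusted p = 0.0192) and Pdgfc (2.68 ± 0.59, edgeR adjusted p = 0.00793) were higher than in healthy epithelium, and Pdgfa, the most abundant ligand there at 5.26 ± 0.890 against 1.59 ± 0.639 RPKM, did not pass (0.85 ± 0.40, edgeR adjusted p = 0.158).

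Tumor epithelium was compared with healthy epithelium to see how the epithelial fraction differed, where strain, Cre, tamoxifen and tumor again cannot be told apart. Of the 6 members with enough reads to be tested, Fn1 and Pdgfra were higher and Dcn and Pdgfrb lower. These were 4 called where 15.4% of the 16085 genes tested were. DESeq2, which tested all 10 members, called 7 of them and 3512 of 31844 genes. Fn1 was at 8.71, 9.25, 24.3 and 16.9 RPKM in tumor epithelial libraries 1 to 4 and at 1.02, 0.145, 0.244 and 0.376 in the healthy ones. No value overlapped, and the log2 fold change of 3.86 ± 0.76 (edgeR adjusted p = 0.00431) held under all 18 alternatives. Pdgfra was at 0.478, 1.59, 0.347 and 0.386 RPKM against 0.0822, 0.0409, 0.0520 and 0.00931 (3.52 ± 0.68, edgeR adjusted p = 0.00386), low levels that rest on 258 to 911 counts per tumor library. The endothelial marker sum was higher too, at 7.31 to 9.05 RPKM in tumor and 0.276 to 0.690 in healthy epithelium. Of the 7 endothelial markers tested 2 were called as higher, with a median log2 fold change of 0.90. Cdh5 alone was at 3.94 to 4.26 RPKM in tumor and at most 0.205 in healthy epithelium. Pecam1 overlapped, at 0.0324 to 0.311 and 0.0131 to 0.313. Monocyte and macrophage markers summed to 0.364 to 1.31 and 0.515 to 1.52. The part of admixed cells in Fn1 and Pdgfra was not tested.

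The members that fell in epithelium did so from low levels. Dcn was at 0.152, 0.0936, 0.193 and 0.133 RPKM in tumor and at 2.03, 0.0465, 0.611 and 1.07 in healthy epithelium. The groups overlapped through healthy library 2, and the log2 fold change of -4.03 ± 1.07 (edgeR adjusted p = 0.0210) lost its call when any tumor library or healthy library 4 was left out (adjusted p-values 0.0552 to 0.0642). Pdgfrb was at 0.0406, 0.00970, 0.0338 and 0.00965 RPKM in tumor and 0.162, 0.207, 0.167 and 0.0338 in healthy epithelium, on 3 to 16 counts per tumor library, with a slight overlap (-3.12 ± 0.64, edgeR adjusted p = 0.00560). Sparc (0.43 ± 0.88, edgeR adjusted p = 0.780) and Postn (-1.96 ± 0.86, edgeR adjusted p = 0.135) did not pass. Lum had 3 counts in the tumor and 42 in the healthy epithelial libraries in sum, 26.1-fold lower in tumor (95% exact Clopper-Pearson interval 8.34 to 132, counting error only). Pdpn was detected in all 4 tumor epithelial libraries, at 0.0405 to 0.214 RPKM, and in none of the healthy ones, and was at least 2.53-fold higher, taken against 3 counts per library. Fap and Thy1 were at most 0.250 and 0.142 RPKM in any epithelial library.

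**Figure D5:**
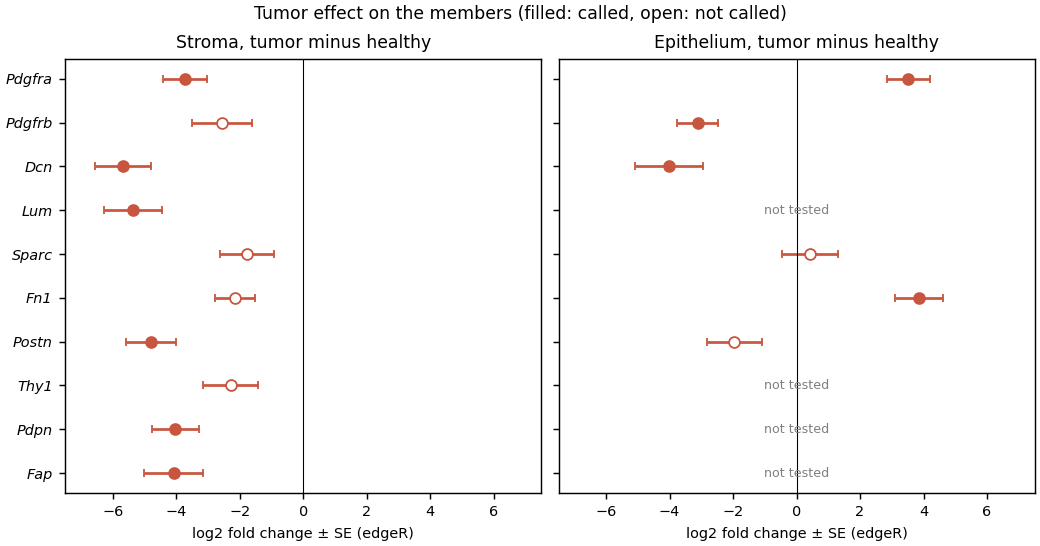
Log2 fold change of tumor over healthy cells from edgeR, with its standard error, for each member in stroma (left) and epithelium (right), filled where the gene was called. All 10 values in stroma are below 0, whereas Fn1 (3.86) and Pdgfra (3.52) are above 0 in epithelium.

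Whether the tumor effect differed between the stromal and the epithelial gate was tested as an interaction over the 16 libraries. It passed for Pdgfra (-7.23 ± 1.03, edgeR adjusted p = 3.74e-04), Fn1 (-6.03 ± 1.06, edgeR adjusted p = 0.00153) and Pdpn (-10.99 ± 1.66, edgeR adjusted p = 0.00108), 3 of 10 members, where 15.1% of the 20901 genes tested passed. The value of Pdpn depends on the prior count, since healthy epithelium had none. For Dcn (-1.71 ± 1.32, edgeR adjusted p = 0.439), Lum, Sparc, Fap, Pdgfrb, Postn and Thy1 it did not pass. With limma on log2(RPKM + 1) or log2(RPKM + 0.1) 10 or 9 members passed, all negative, on scales where the median of all genes was -0.27 or -0.80. In tumors the stromal and the epithelial gate overlapped in Fn1 (9.22 to 18.3 against 8.71 to 24.3 RPKM) and in Pdgfra (0.240 to 2.08 against 0.347 to 1.59).

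The test of tumor stroma against tumor epithelium called 1 of the 9 members tested, Dcn (5.94 ± 0.59, edgeR adjusted p = 0.0244), where 0.0294% of 16985 genes were called. Lum was 411-fold higher in tumor stroma by summed counts (95% interval 140 to 1999), yet its adjusted p in edgeR was 0.0514, and Postn (5.35 ± 0.95, edgeR adjusted p = 0.0588), Sparc (4.90 ± 1.04, edgeR adjusted p = 0.0705) and Pdgfrb (5.29 ± 1.22, edgeR adjusted p = 0.0804) lay near the threshold too. This count moved with tumor stromal libraries 1 and 2, whose epithelial marker sums were near or within the range of the epithelial gate. Without both, 7 members passed and 4471 genes in all, with Sparc at 5.65 and Pdgfrb at 6.09 on the log2 scale. The call of Dcn was lost when tumor stromal library 3 or 4 or any tumor epithelial library was left out.

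Among the myeloid cells, monocytes held far more Fn1 than any other member. It reached 183, 188, 215 and 166 RPKM in blood monocytes of tumor-bearing mice, above every stromal library, and 79.4, 85.4, 108 and 140 in blood monocytes of healthy mice. The groups did not overlap, but the log2 fold change of 0.95 ± 0.22 did not pass (edgeR adjusted p = 0.132). Monocytes from tumors held 113, 78.1, 103 and 136 RPKM, all below the blood monocytes of the same kind of mice (-0.55 ± 0.20, edgeR adjusted p = 0.0906). Fn1 alone of the 10 genes had its highest group mean outside healthy stroma, so its RNA was not particular to the stromal gate in these libraries. Which cells of the stromal gate held it was not tested. Fn1 was ordered by its mean as blood monocytes of tumor-bearing mice, tumor monocytes (107), blood monocytes of healthy mice (103), healthy stroma (67.4), tumor epithelium (14.8) and tumor stroma, and only the first and the fourth of these steps separated groups that did not overlap.

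Monocytes of tumors were set against blood monocytes of tumor-bearing mice to see what changed with entry into the tumor. Pdpn and Sparc were higher in the tumor, 2 called of 6 members tested, where 11.7% of 15280 genes were called. DESeq2, which tested all 10 members, called 6 of them and 3122 of 31218 genes. Pdpn was at 1.68, 2.43, 0.687 and 3.27 RPKM in tumor monocytes and at 0.0477, 0.00176, 0.00463 and 0.00504 in blood (log2 fold change 7.22 ± 1.00, edgeR adjusted p = 8.76e-04). Tumor monocytes thereby held more Pdpn than any tumor stromal, tumor epithelial or blood library, and all but the lowest of them exceeded every tumor neutrophil library. Sparc was at 0.123, 0.438, 0.825 and 0.305 RPKM in tumor monocytes and at 0.00408 to 0.0476 in blood (4.78 ± 0.99, edgeR adjusted p = 0.00838). Epithelial markers summed to 1.71 to 34.5 RPKM in tumor and 0.502 to 0.983 in blood monocytes, endothelial markers to 1.24 to 2.48 and 1.06 to 2.05. Of the 8 dissociation genes 6 were called as higher in tumor monocytes, with sums of 123 to 333 RPKM against 40.8 to 150 in blood, and their part in Pdpn and Sparc was not tested. Lymphatic and fibroblast sources of Pdpn were not tested, and Dcn was at 0.00884 to 0.803 and Lum at 0.00203 to 0.259 RPKM in the same tumor libraries.

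Neutrophils from tumors held more Fn1 and Sparc than blood neutrophils of tumor-bearing mice, 2 called of 8 members tested, where 16.3% of 13674 genes were called. DESeq2, which tested all 10 members, called 5 of them and 4740 of 31530 genes. Fn1 was at 9.45, 0.665, 1.44 and 1.40 RPKM in the tumor and at 0.0411 to 0.141 in blood (5.10 ± 0.79, edgeR adjusted p = 0.00198), and Sparc at 6.02, 1.63, 1.32 and 3.03 against 0.0287 to 0.268 (4.30 ± 0.72, edgeR adjusted p = 0.00279). Tumor neutrophil library 1 was highest for both genes and had the highest epithelial marker sum, 166 RPKM, against 12.3 to 35.9 in the other 3 and 0.663 to 1.56 in blood. Of the 8 dissociation genes 5 were called as higher in tumor neutrophils, with sums of 187 to 373 RPKM against at most 129 in blood, and their part in both genes was not tested. Without tumor neutrophil library 1 the log2 fold changes were 3.93 for Fn1 (edgeR adjusted p = 0.00205) and 3.94 for Sparc (edgeR adjusted p = 0.00883). Endothelial markers summed to 6.96, 0.557, 3.19 and 3.24 RPKM in tumor neutrophil libraries 1 to 4 and to 0.645 to 1.38 in blood. The part of endothelial RNA in both genes was not tested. Dcn was at 0.710 to 1.84 RPKM in tumor and 0.0679 to 0.455 in blood neutrophils, without overlap, and did not pass (1.91 ± 0.72, edgeR adjusted p = 0.0938). Thy1 had 136 counts over the tumor and 1 over the blood libraries, 129-fold higher (95% exact Clopper-Pearson interval 22.8 to 5138, counting error only).

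Blood cells of tumor-bearing mice, the same libraries that tumor cells were set against, were compared with those of healthy mice. Strain, Cre and tamoxifen differed here along with the tumor. None of the 5 members tested in monocytes was called by edgeR or limma-voom, and 2 had an unadjusted p under 0.05 (Fn1 and Thy1). Over all genes edgeR called 0.209% of 15313, and DESeq2 called 330 of 30780, Thy1 among them. In neutrophils 1 of 7 members was called, where 4.01% of 13360 genes were. It was Fap, at 0.473, 0.269, 1.62 and 1.87 RPKM in healthy mice and at 0.0850, 0.00949, 0.0461 and 0.0401 in tumor-bearing mice, with a log2 fold change of -4.57 ± 0.83 (edgeR adjusted p = 0.0118). The groups did not overlap, and the call held whichever library was left out but not with limma-voom (adjusted p = 0.0586) or with limma on log2(RPKM + 1). Blood neutrophils of healthy mice, at 140 to 793 counts, held more Fap than any tumor stromal library in 3 of 4 cases. Dcn, at 0.111 to 0.887 RPKM, and Lum, at 0.0308 to 0.288, were low in the same libraries. Platelet markers summed to 222, 226, 1.74 and 10.2 RPKM in healthy libraries 1 to 4, and erythroid markers to 330, 458, 3.82 and 7.45. Fap was higher in libraries 3 and 4. In tumor-bearing mice these sums were 2.34 to 40.5 and 7.97 to 759. The part of such cells in Fap was not tested.

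Likeness of pattern was measured as the root mean square difference of log2 group means (RPKM + 0.1), each centred on the gene's own mean, over the 10 groups. Lum and Postn were each other's nearest member (0.44), Dcn was nearest to Lum (0.82), and Pdgfrb and Thy1 were each other's nearest (0.70). Fn1 stood alone, with no member nearer than 3.02. Among all genes at 1 RPKM or more in at least 1 group, Postn was nearest to the complement genes C1s2 (0.25) and C1s1 (0.28) and to Col1a2 (0.28), and Pdgfra to Plod2 (0.25), Cygb (0.28) and Enpp2 (0.33). Lum was followed, after Postn, by Fbn1 (0.51) and Cd248 (0.52), and Dcn, after Lum, by Dpt (0.91) and Col3a1 (0.95). The nearest to Pdgfrb were Adgra2 (0.43), Etv1 (0.47) and Itm2a (0.48), to Thy1 Sulf1 (0.53), Vwa1 (0.60) and Armcx2 (0.60), and to Sparc Igfbp3 (0.72), Adamts1 (0.75) and Bgn (0.75). Pdpn was nearest to Gm3810 (0.52), Bvht (0.66) and 1700016P03Rik (0.69), and Fap to Gm25357 (0.59), Mir673 (0.63) and Olfr1396 (0.68), all with low levels. These distances describe 10 group means in which healthy stroma weighs heavily, and most of the other groups are near 0 for most members.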

How the data were processed

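RNA from sorted cells had been amplified into cDNA and sequenced as single reads. The authors mapped the reads to mm10 (Bowtie2 in their processing notes) and deposited expected counts per Ensembl gene and RPKM values, which scale counts by gene length and library. The deposited counts in the table of the series equalled those of the single samples (largest difference 0), 99.6% of nonzero values were not whole (tolerance 1e-06), and they were rounded. Strand, annotation release and multimapping reads are not given in the sources used here. Symbols were matched by identifier (GENCODE M21) for 45143 genes.

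Each comparison was fitted to its own 8 libraries (16 for the interaction) in edgeR 4.0.16 (R 4.3.3) with filterByExpr, TMM and the robust quasi-likelihood test, over all genes kept, and the model was tested on simulated data. Calls needed an adjusted p-value under 0.05 and, except in the interaction, a log2 fold change beyond 1.5 in either direction. RPKM values describe levels, with a pseudocount of 0.1 for log2. Against a group with a rounded count of 0 in every library, the fold change is a bound, taken against 3 counts per library. Where a group held 1 to 3 counts in sum, it is the ratio of summed counts with its 95% exact Clopper-Pearson interval, which covers counting error only. Alternatives were DESeq2 1.42.0, limma-voom (limma 3.58.1), limma on log2(RPKM + 1) and on log2(RPKM + 0.1), RLE factors, no filter, a mean CPM of at least 1, all 40 libraries, no fold threshold, a block for the replicate number, no mitochondrial genes, each library left out, and tumor stromal libraries 1 and 2 left out together. A block for the animal named in the title (limma-voom with duplicateCorrelation) was added after seeing the data.

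Replicates of a group differed by 21.5 to 856 times counting error over 60 pairs. By their titles some animals gave libraries to several groups, which the reported tests did not take into account, and p-values measure the spread between these libraries. The tag of 2 tumor stromal samples repeats the number 3, and 1 of them was numbered 4. All 10 members are named. From each other list up to 4 called genes per direction were named by size of change in stroma, with a mean of at least 1 RPKM, and every gene of a list of 4. The genes nearest in pattern to Fn1 are not reported here. Members and lists were chosen with earlier results of these data known.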

Additional observations from a re-analysis of the deposited data

Results flagged for a closer look

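The difference between the tumor effects in stroma and in epithelium passed edgeR's interaction test for 3 members, at -7.23 for Pdgfra, -6.03 for Fn1 and -10.99 for Pdpn on the log2 scale. Each was lower in tumor stroma and higher in tumor epithelium than in the healthy counterpart, in 4 of 4 libraries against 4 of 4. For Pdpn the value depends on the prior count, since all healthy epithelial libraries had a rounded count of 0.

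In 19 of the 92 sets of 4 libraries with more than 3 counts, 1 library lay far from the other 3 in RPKM, by the ratio of its gap to the whole range (Dixon). A chance rate of about 1 in 20 holds for normally distributed values and independent sets, and neither was tested. In each flagged set the library lay above the other 3, and no excess over chance is read from the count.

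In stroma, healthy library 4 was at 164 for Fn1 (the other 3 at 29.7 to 38.1) and at 21.9 for Pdpn (3.23 to 3.92), and tumor library 1 at 18.3 for Fn1 (9.22 to 10.7). In epithelium, tumor library 2 was at 1.59 for Pdgfra (0.347 to 0.478) and healthy library 3 at 0.250 for Fap (0.0121 to 0.0460).

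Healthy blood monocyte library 2 was apart for 5 members, at 1.12 for Dcn (the other 3 at 0.00853 to 0.0186), 0.438 for Lum, 0.376 for Sparc, 0.0862 for Postn and 0.918 for Thy1 (0.133 to 0.202). Its pericyte markers summed to 2.50 RPKM and its neutrophil markers to 108, against at most 0.411 and 27.9 in the other 3, and their part in these values was not tested. In blood monocytes of tumor-bearing mice, library 1 was at 0.400 for Pdgfrb (0.177 to 0.203) and at 0.0477 for Pdpn.

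Among tumor monocytes, library 4 was at 0.423 for Pdgfra (0.0199 to 0.0402), library 2 at 0.803 for Dcn (0.00884 to 0.0680) and library 3 at 0.328 for Postn (0.00571 to 0.0453). Tumor neutrophil library 1 was at 9.45 for Fn1 (0.665 to 1.44) and library 4 at 1.84 for Dcn (0.710 to 0.788). In blood neutrophils of healthy mice, library 1 was at 0.288 for Lum (0.0308 to 0.0534) and library 4 at 0.0862 for Pdpn (0.00368 to 0.0177).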

How the results depend on the processing

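Of 1406 values of single members under an alternative, 1292 kept their direction and side of the threshold, 33 lost a call, 63 gained one and 18 changed sign. Scaling matters: with log2(RPKM + 0.1) the median of all genes moved from 0.03 to -0.30 in stroma, from -0.01 to 0.58 in epithelium and from 0.05 to -0.80 in the interaction, and changes on that scale are read against those medians.

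The number of members called in stroma was 6 in the reported test and stayed within 5 to 9, and that of healthy stroma against epithelium was 10 and stayed within 9 to 10. In epithelium 4 were called, but 7 with DESeq2, without the filter and with all 40 libraries, and 1 with log2(RPKM + 1). Between the tumor fractions 1 was called, but 7 with DESeq2, with all 40 libraries and without both tumor stromal libraries 1 and 2, 2 without the filter, with log2(RPKM + 0.1) and with the replicate block, and 0 with limma-voom. For tumor against blood monocytes it was 2, but 6 with DESeq2, 5 with all 40 libraries and 0 with log2(RPKM + 1). For neutrophils it was 2, but 5 with DESeq2 and with all 40 libraries. In blood monocytes it was 0, but 1 with DESeq2, and in blood neutrophils 1, but 0 with limma-voom and with log2(RPKM + 1). In the interaction it was 3, but 10 with log2(RPKM + 1) and 9 with log2(RPKM + 0.1). The causes were not tested.

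Leaving out 1 library at a time gave 5 to 6 members in stroma, 3 to 5 in epithelium, 0 to 7 between tumor fractions, 10 to 10 between healthy fractions, 2 to 2 in tumor monocytes, 2 to 3 in tumor neutrophils, 0 to 0 in blood monocytes, 1 to 1 in blood neutrophils and 3 to 4 in the interaction. Between tumor fractions it was 7 without tumor stromal library 1, 5 without library 2, and 0 without library 3 or 4 or any tumor epithelial library.

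Counts over all genes moved more. In stroma 1602 genes were called, 462 with the replicate block and 3452 with DESeq2, and between tumor fractions 5 were called, 0 with limma-voom and 4471 without tumor stromal libraries 1 and 2. Over all alternatives the ranges were 576 to 3512 in epithelium (2476 reported), 2110 to 7683 between healthy fractions (5702), 520 to 3122 in tumor monocytes (1781), 683 to 5995 in tumor neutrophils (2229), 4 to 330 in blood monocytes (32), 136 to 1081 in blood neutrophils (536) and 2530 to 4578 in the interaction (3165).

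Signs changed only for values that had not been called. With 1 library left out, Sparc in epithelium ran from -0.09 to 1.80, Pdgfra between tumor fractions from -0.57 to 1.12, Dcn in blood neutrophils from -0.68 to 0.44 and, in the interaction, Pdgfrb from -0.04 to 1.11, Lum from -1.49 to 0.34 and Fap from -1.10 to 0.72. Fap was 0.39 without tumor stromal libraries 1 and 2. Pdgfrb in the interaction was -0.28 with limma-voom, -0.23 with the animal block, -2.55 with log2(RPKM + 0.1) and -1.94 with log2(RPKM + 1), where it was called.

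Replicate numbers do not follow the animals named in the titles, and the deviations of same-numbered libraries correlated between -0.27 and 0.23 over genes. With the replicate number as a block, 6 members were called in stroma, 3 in epithelium, 2 between tumor fractions, 10 between healthy fractions, 2 in tumor monocytes, 2 in tumor neutrophils, 0 in blood monocytes, 1 in blood neutrophils and 3 in the interaction. By title, the tumor fractions shared 2 animals and the groups of the interaction 3. With the animal as a block in limma-voom, an alternative chosen after seeing the data, 0 members were called between tumor fractions and 3 in the interaction, as with limma-voom alone, and the correlation within animals was 0.19 and 0.03. Healthy fractions and tumor against blood cells shared 1 animal each, too few to estimate that correlation, and the other comparisons shared none.

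Members with few counts in most libraries, among them Fap and Thy1 in epithelium and Lum and Postn in blood monocytes, were left out of the reported tests by the filter on low counts and were tested only under alternatives.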
